A study of Mus musculus with 2 samples.

Results

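The Hmga2 peaks described here lie in a block of 25 Mb on mouse chromosome 14, from 80000001 to 105000000. They are all peaks of chromosome 14 whose centre falls between these bases, and the block itself was chosen with its crowded bins known, so its density is a description. The block held 869 of the 1992 peaks of the chromosome and of the 34597 peaks of the whole list. The peaks come from 1 chromatin immunoprecipitation (ChIP-seq) library made with an anti-Hmga2 antibody, and 1 input library, chromatin without antibody, served as the control for peak calling. Per the labels both libraries were made from mouse embryonic stem cells of the line E14Tg2a that had been induced to become epiblast-like cells (EpiLCs) in medium with Activin A and bFGF, at a time that is not stated. The study's methods instead describe the ChIP-seq cells as epiblast stem cells (EpiSCs) grown from induced pluripotent stem cells. The experiment was not repeated, so the values below carry no error from replicates and groups were not tested against each other. Intervals are 95% intervals, and they cover the counting of peaks only.

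Hmga2 is a small chromatin protein whose AT-hooks grip the minor groove of A+T-rich DNA. It bends and opens chromatin rather than acting as a sequence-specific activator, and it is abundant in embryonic and pluripotent cells that leave the naïve state. Long A+T-rich stretches with few genes often touch the nuclear lamina, the protein mesh under the nuclear envelope. Whether the block is such a stretch was not examined here.

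The positions are those of the list. They are not GRCm38 positions, since the last peak of chromosome 14 ends at 125104321 and 6 of its peaks end beyond base 124902244, the end of that chromosome in GRCm38. The submitters' processing notes name mm9, and the study's methods name both mm9 and GRCm38. No genome of this build was used here, so neither the bases nor the genes under the peaks are given, and the block is called by its position. The wide gene-free stretches of mouse chromosome 14 can still be listed from RefSeq on GRCm38.p6 by name and length. Of its 851 protein-coding genes, neighbours stood over 1 Mb apart in 16 places. The widest stretch, 4.54 Mb, lay between Pcdh20 and Pcdh9, and the next, 4.42 Mb, between Olfm4 and Pcdh17. Pcdh9, Pcdh17 and Pcdh20 encode protocadherins, adhesion proteins of the nervous system. The next widest was 3.41 Mb, between Slitrk5, which encodes a neuronal membrane protein, and Gpc5, which encodes a cell-surface proteoglycan. Where these stretches lie relative to the peaks was not determined, so it is not established here that the block is a gene desert.

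Hmga2 peaks were crowded in the block. Its density was 34.8 peaks per Mb (interval 32.5 to 37.2), compared with 11.6 (10.9 to 12.3) over the rest of the chromosome and 14.03 (13.88 to 14.19) over the other 18 autosomes. The ratio to the rest of chromosome 14 was 3.00 (2.74 to 3.28). Thus 43.6% of the peaks of the chromosome fell into 20.5% of the span between its first and last peak.

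The rest of chromosome 14 was not uniform. The 76.8 Mb before the block held 645 peaks, or 8.39 per Mb (7.76 to 9.07), whereas the 20.1 Mb after it held 478, or 23.8 per Mb (21.7 to 26.0). The block was therefore 4.14 times (3.74 to 4.59) as dense as the chromosome before it but 1.46 times (1.31 to 1.64) as dense as the chromosome after it. The rise came 2 Mb inside the start of the block, and beyond its end, at base 105000000, peaks were again frequent further on.

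Bases covered by peaks followed the same order. Peaks covered 8.55 kb per Mb of the block, 1.96 kb per Mb before it, 5.90 kb per Mb after it and 3.28 kb per Mb of the other autosomes.

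**Figure D1:**
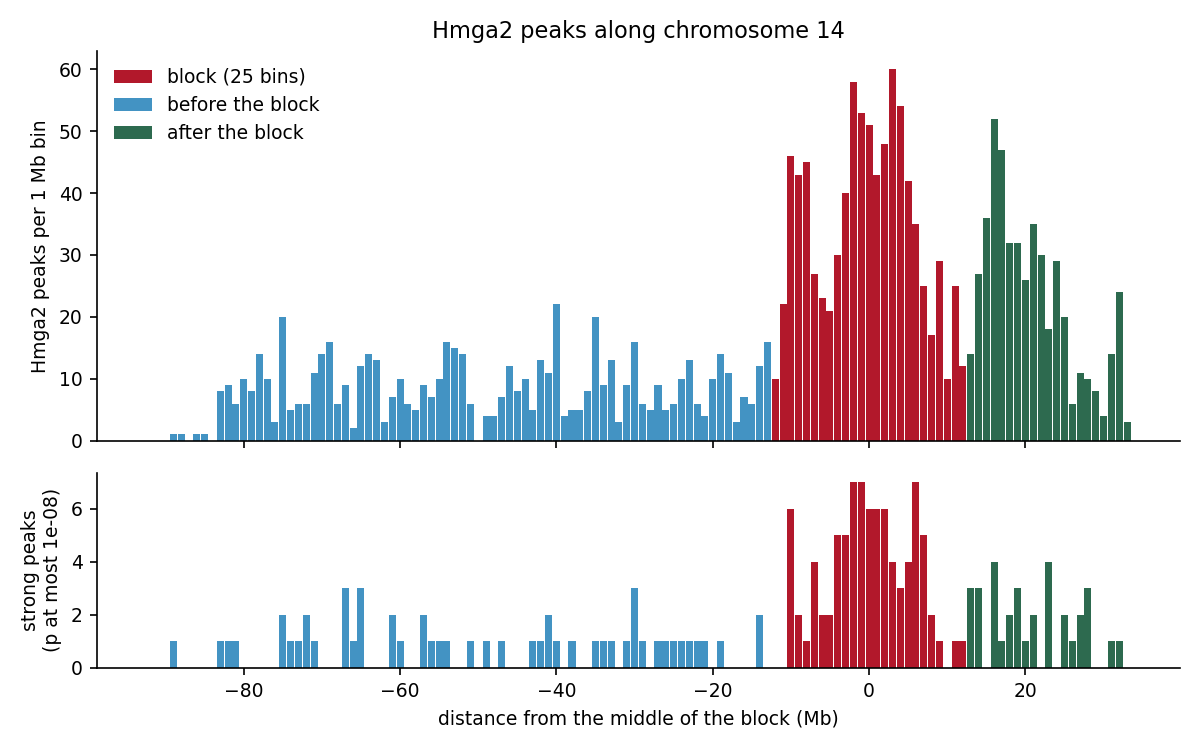
Number of Hmga2 peaks (top) and of strong peaks with p of at most 1e-08 (bottom) in each 1 Mb bin of chromosome 14, against the distance of the bin from the middle of the block in Mb. The bins of the block reach 60 peaks, those before it at most 22, and those after it at most 52.

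Counted in bins of 1 Mb, the block showed an inner structure. Its 25 bins held between 10 and 60 peaks, with a median of 35. Before the block, the 77 whole bins from 3 Mb on held between 0 and 22 peaks with a median of 8, and after it 20 bins held between 4 and 52 with a median of 25. At least 40 peaks were found in 12 bins of the block, in no bin before it and in 2 bins after it.

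The first bins of the block were still thin. The bin from 80 to 81 Mb held 10 peaks and the next held 22. Then came a crowded stretch from 82 to 85 Mb with 46, 43 and 45 peaks. Its 134 peaks correspond to 44.7 per Mb (37.4 to 52.9).

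Between 85 and 89 Mb the counts dipped to 27, 23, 21 and 30, or 25.2 peaks per Mb (20.6 to 30.7). The limits of these stretches were drawn from the bin counts themselves, so their differences in density are a description. Even within the dip, each bin except that at 87 Mb, with 21 peaks, held more than the fullest bin before the block.

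The main crest ran from 89 to 98 Mb. In order, its 9 bins held 40, 58, 53, 51, 43, 48, 60, 54 and 42 peaks. Together these were 449 peaks, 51.7% of those of the block, at 49.9 per Mb (45.4 to 54.7).

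The last 7 bins fell away unevenly, with 35, 25, 17, 29, 10, 25 and 12 peaks from 98 Mb to the end, or 21.9 per Mb (18.5 to 25.6). Past the end of the block, the counts were 14 and 27 in the next 2 bins and then rose again. From 107 to 115 Mb they lay between 26 and 52, at 36.2 per Mb (32.2 to 40.7). The fullest bin of chromosome 14 outside the block, with 52 peaks, was that from 108 to 109 Mb. The next fullest of the chromosome outside the block held 47, 36, 35, 32 and 32 peaks, and all of these lay between 107 and 114 Mb.

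The 5 fullest bins of the block held 60, 58, 54, 53 and 51 peaks, starting at 95, 90, 96, 91 and 92 Mb. With counting intervals of 45.8 to 77.2 for 60 peaks and 38.0 to 67.1 for 51 peaks, these 5 cannot be ranked among themselves. The 3 emptiest held 10, 10 and 12 peaks, starting at 80, 102 and 104 Mb.

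The length of the crest set it apart more than the height of any single bin. Over all autosomes, 59 bins held at least 40 peaks, and 12 of them were in the block. With a limit of 50 peaks, 5 of 12 bins were in it. The 9 bins from 89 to 98 Mb were the longest run of bins with at least 40 peaks on any autosome. The next longest runs had 3 bins, and 1 of these was the stretch from 82 to 85 Mb. With a limit of 30 peaks, the run in the block had 11 bins, from 88 to 99 Mb, compared with 6 for the next longest, on chromosome 5. These are descriptions, because the block was chosen with its full bins known.

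Among windows of 25 Mb that start at a whole Mb, the fullest of all autosomes was on chromosome 14 as well. It held 903 peaks and ran from 89 to 114 Mb, so it joined the crest to the crowded stretch after the block. The fullest windows of the next chromosomes held 797 peaks on chromosome 16 and 675 on chromosome 8. On chromosomes 11, 7 and 19, the fullest windows held 391, 386 and 319 peaks.

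At a finer scale, peaks were spread through nearly the whole block. Of its 250 windows of 100 kb, 14 held no peak (5.60%), compared with 49.1% of the windows before the block from 4 Mb on and 17.5% of those after it to 125 Mb. The median window held 3 peaks, and 80 windows (32.0%) held at least 5, compared with 0.789% before and 16.0% after the block. The fullest, from 96000001 to 96100000, held 11, but windows with 10 peaks also occurred before and after the block. The fullest windows were thus alike, while empty windows were rarer and well-filled ones more common in the block.

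The strength of the peaks was then compared. A peak is called strong here when its p is at most 1e-08, which 7.73% of the whole list fulfilled. The pileup of a peak is the mean number of overlapping ChIP fragments along it, and the fold is its excess over the local background, computed by MACS2 as the pileup plus 1 divided by the background plus 1. All 34597 peaks of the list had at least a 2-fold excess and p under 0.001, the limits named by the study, so these limits select nothing, whereas p of at most 1e-08 left 2673 peaks. In the block 87 peaks were strong, or 10.0% (8.19% to 12.2%), compared with 86 peaks, or 7.66% (6.24% to 9.36%), in the rest of the chromosome. These intervals overlap, and the ratio of the shares, 1.31, has an interval from 0.984 to 1.74 that includes 1. On the other autosomes the share was 7.67% (7.39% to 7.97%), an interval below that of the block. The outcome depended on the limit. A q under 0.05, which 72.5% of the whole list passed, was reached by 71.7% of the peaks on both sides. A q under 1e-05, which 6.01% of the list passed, was reached by 8.40% in the block and 5.70% in the rest, a ratio of 1.47 (1.07 to 2.04). With the borders narrowed by 2 Mb on each side, the ratio of strong shares was 1.39 (1.043 to 1.85). Against the chromosome before the block alone it was 1.22 (0.879 to 1.69) and against that after it 1.45 (0.987 to 2.13), both intervals including 1.

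The number of strong peaks per Mb followed the crowding of all peaks. There were 3.48 strong peaks per Mb of the block (2.79 to 4.29), compared with 0.690 before it, 1.64 after it and 1.08 on the other autosomes. The ratio was 5.04 (3.54 to 7.24) to the chromosome before the block and 2.12 (1.41 to 3.27) to that after it, compared with 4.14 and 1.46 for all peaks. Both intervals for strong peaks overlap those for all peaks. Of the 173 strong peaks of the chromosome, 50.3% lay in the block, as did 43.6% of all its peaks.

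Strong peaks were found in 22 of the 25 bins of the block. No bin held more than 7, and the bins with 7 started at 90, 91 and 98 Mb. The crest from 89 to 98 Mb held 48 of them, 10.7% of its peaks (8.16% to 13.9%). The crowded stretch from 82 to 85 Mb held 9, or 6.72% (3.57% to 12.3%), and the dip from 85 to 89 Mb held 13, or 12.9% (7.68% to 20.8%). The intervals of these stretches overlap, so no stretch stood out by its share. Over the 25 bins, the number of strong peaks followed the number of all peaks (Spearman rho = 0.68), of which it is a part, whereas the median pileup of a bin did not follow it closely (rho = 0.13). The bins belong to 1 library and are neighbours on 1 chromosome, so these correlations only describe them.

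The crowded stretch from 107 to 115 Mb, which was less dense than the crest, held 13 strong peaks among 290, or 4.48% (2.64% to 7.52%). This interval lies below that of the crest but overlaps that of the stretch from 82 to 85 Mb.

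Most peaks of the block were low. The pileup ran from 5 to 24.02 fragments, with a median of 6.10 (upper bound of its interval 6.20) and quartiles of 5.51 and 7.28, and 91.1% of the peaks had a pileup under 10. The median was lower than in the rest of the chromosome, 6.35 (6.23 to 6.46), and than on the other autosomes, 6.34 (6.32 to 6.36). The difference was small, the ratio to the rest of the chromosome being 0.961 (0.929 to 0.995). Before the block the median was 6.45 (6.25 to 6.61). After the block it was 6.28 (6.11 to 6.41), an interval that overlaps that of the block. The ratio to the chromosome after the block, 0.971 (0.936 to 1.015), has an interval that includes 1. The median fold was 3.71 in the block and 3.76 in the rest of the chromosome, with overlapping intervals of 3.66 to 3.77 and 3.71 to 3.82.

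**Figure D2:**
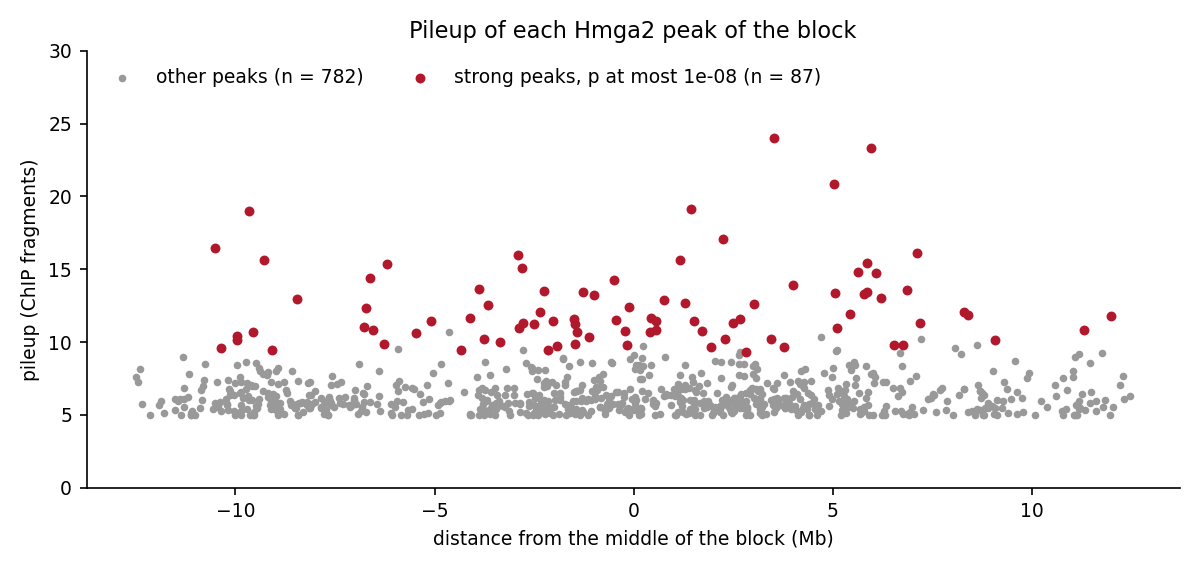
Pileup of each of the 869 peaks of the block in ChIP fragments, against its distance from the middle of the block in Mb, with strong peaks (p of at most 1e-08, n = 87) in red. Most peaks lie between 5 and 8 fragments along the whole block, and the highest reaches 24.02.

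Crowding was seen at every pileup, although not to the same degree. For peaks with a pileup from 5 to under 6, the block held 16.1 per Mb, compared with 3.23 before it, a ratio of 4.99 (4.25 to 5.87). The ratio was 3.94 (3.19 to 4.86) from 6 to under 7, 2.92 (2.18 to 3.91) from 7 to under 8 and 3.04 (2.22 to 4.16) from 8 to under 10. For pileups of 10 and over it was 4.93 (3.39 to 7.22). The excess was thus larger among the lowest peaks than among those of 7 to 8 fragments, whose intervals do not overlap, and high again, with a wider interval, among the highest.

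Against the chromosome after the block the ratios were lower, and the lowest was again that from 7 to under 8 fragments, but the intervals of the classes overlap. The ratio was 1.62 (1.36 to 1.93) in the lowest class, 1.08 (0.783 to 1.48) from 7 to under 8 and 1.88 (1.23 to 2.91) at 10 and over. From 8 to under 10 it was 1.41 (0.976 to 2.05), near the 1.46 of all peaks. In these 2 classes from 7 to under 10 fragments the intervals include 1, so a difference in density was not detectable in either.

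**Figure D3:**
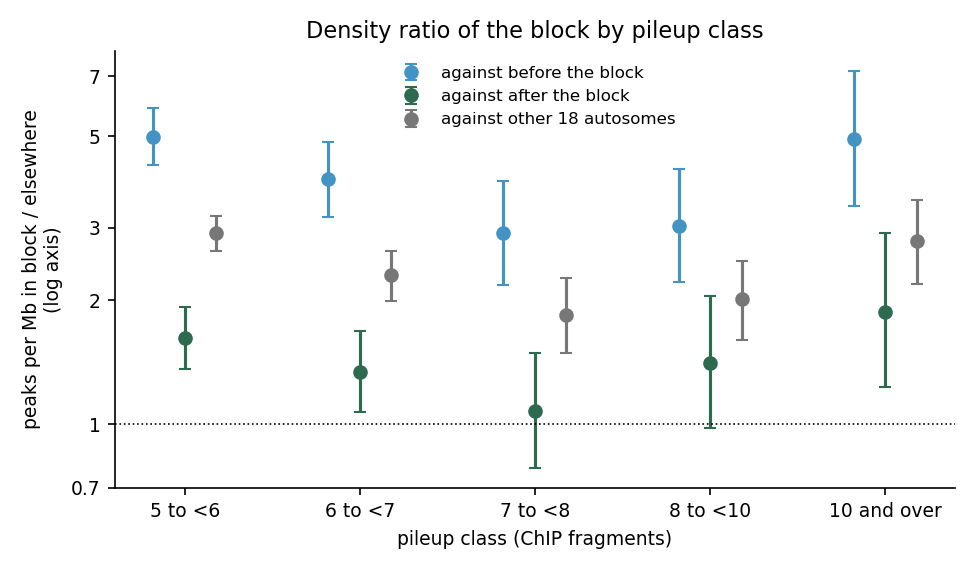
Ratio of peaks per Mb in the block to peaks per Mb before it, after it and on the other 18 autosomes, on a log axis, in 5 classes of pileup in ChIP fragments; bars are 95% exact intervals for counting error. Against the chromosome before the block all ratios lie between 2.92 and 4.99, with the lowest at 7 to under 8 fragments.

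Peaks of the block had about the length of other peaks. The median was 197 bp (189 to 210), compared with 192 bp (184 to 199) in the rest of the chromosome and 188 bp (186 to 189) on the other autosomes. The shortest length of the list, 134 bp, was shared by 159 peaks of the block, or 18.3% (15.9% to 21.0%), compared with 21.7% before it and 15.5% after it. A length over 500 bp was reached by 44 peaks of the block, or 5.06% (3.79% to 6.73%), compared with 4.54% (3.47% to 5.92%) in the rest of the chromosome, 4.81% after the block and 3.55% (3.35% to 3.76%) on the other autosomes. The longest, peak 10393 at 84487369 to 84488409, measured 1041 bp with a pileup of only 5.86 and a fold of 3.65. Strong peaks had a median length of 190 bp and the others 198 bp, and none of the 87 strong peaks had the shortest length.

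The local background, which MACS2 takes from the input, was at or near its lowest value at many peaks of the block. It was computed back from pileup and fold and cannot fall below a floor of 0.84 fragments that the caller sets from the whole genome. The background lay within 1% of the floor at 51.0% of the peaks (47.7% to 54.3%), compared with 45.0% (42.1% to 47.9%) in the rest of the chromosome, 43.6% (39.8% to 47.4%) before the block, 46.9% (42.4% to 51.3%) after it and 44.4% (43.9% to 44.9%) on the other autosomes. The intervals of the rest and of the chromosome after the block overlap that of the block, and the other 2 lie below it. The share was 57.4% (47.7% to 66.6%) in the dip and 51.7% (47.1% to 56.3%) on the crest, so it did not follow the number of peaks within the block (rho over 25 bins = 0.13). The part of the background in the crowding or in the lower median pileup was not tested.

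The distances between peaks were short in the block. The median distance from a peak centre to the nearest other was 9.13 kb (8.22 to 9.85), compared with 31.9 kb (28.7 to 37.0) before the block, 11.5 kb (10.2 to 13.3) after it and 18.3 kb on the other autosomes. In the block 53.6% of the peaks (50.3% to 56.9%) had a neighbour at most 10 kb away, compared with 20.8% (17.8% to 24.1%) before and 45.2% (40.8% to 49.7%) after it. On the crest this share was 65.3%, with a median distance of 7.10 kb, and in the dip it was 32.7%, with 14.9 kb.

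Distances shrink wherever peaks are dense. The product of the median distance and the density takes this into account only where density is even and falls where it is not, so its values are a description and show no difference in spacing. It was 0.318 in the block, 0.268 before it, 0.273 after it and 0.256 on the other autosomes. Within shorter stretches it was 0.414 from 82 to 85 Mb, 0.375 in the dip, 0.354 on the crest, 0.293 in the last 7 bins and 0.365 from 107 to 115 Mb. A neighbour within 2 kb was found for 11.2% of the peaks of the block and 12.3% of those after it. Before the block the share was 4.19%, and on the other autosomes 7.67%. Within 3 kb the order of the block and the chromosome after it was reversed, with 20.4% and 17.8%.

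**Figure D4:**
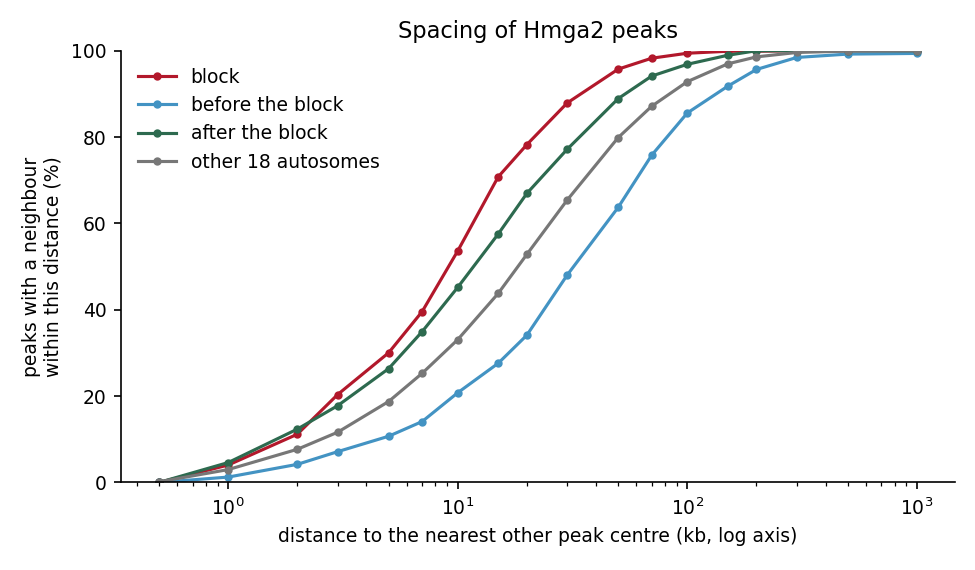
Share of peaks in percent whose nearest other peak centre lies within the distance on the horizontal axis (kb, log axis), for the block, chromosome 14 before and after it and the other 18 autosomes. At 10 kb the share is 53.6% in the block, 45.2% after it, 33.1% on the other autosomes and 20.8% before it.

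Peaks were linked into a chain when each centre lay within 10 kb of the next. The block held 184 chains and 403 single peaks. Of the chains, 121 had 2 peaks, 41 had 3 and 22 had 4 or more. Chains of 4 or more occurred at 0.880 per Mb of the block, compared with 0.0130 before it, 0.298 after it and 0.133 on the other autosomes. With a fixed distance of 10 kb, chains become more frequent wherever peaks are dense, so these values are a description and show no difference in spacing. The longest had 6 peaks and occurred 4 times, all between 95 and 98 Mb, while a chain of 8 peaks was found once before the block.

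The first of these chains of 6 ran from 95144660 to 95176350 and spanned 31.7 kb. In order its pileups were 8.48, 9.09, 11.6, 6.31, 9.30 and 5.48 fragments. Only peak 10821, which was 844 bp long and had a fold of 6.72, was strong. The next, from 95304774 to 95336795, had pileups between 5.01 and 9.34 and 1 strong peak. Another, from 96003991 to 96034156, held peak 10872, whose pileup of 24.02 was the highest of the block, together with peaks down to 5.18. The chain from 97811033 to 97834058 had no strong peak, its highest pileup being 7.11. Most peaks of these longest chains were thus not strong, as in the whole block, where 10.0% of the peaks were strong.

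Most strong peaks that had a close neighbour had a weaker one. Of the 87, 51 (58.6%) had some neighbour within 10 kb, compared with 53.1% of the 782 other peaks of the block, and 3 pairs of neighbouring strong peaks lay within 10 kb of each other. A strong neighbour within 10 kb was found for 6.90% of the strong peaks of the block and 2.33% of those of the rest, with a ratio of 2.97 whose interval, 0.616 to 14.3, includes 1. The median distance from one strong peak to the next was 150 kb, and the widest was 2230 kb.

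The closest pair of the block, peaks 11047 and 11048 at 101182600 to 101183253, had centres 502 bp apart and low pileups of 5.36 and 6.62. The widest interval between neighbouring centres, 276 kb, lay between peaks 10257 and 10258 near the start of the block. Of the 868 intervals in the block, 35 exceeded 100 kb (4.03%), compared with 35.2% of those before it and 9.85% of those after it.

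The strongest single peaks of chromosome 14 were shared between the block and the rest. By p, 7 of the 10 strongest peaks of the chromosome lay in the block, as did 11 of the 20, 29 of the 50 and 53 of the 100 strongest. The block held 43.6% of all peaks and 50.3% of the strong peaks of the chromosome. The strongest outside it, peak 9768 at 25924289 to 25924495, had a pileup of 22.2 and a fold of 9.41 and ranked 3 on the chromosome.

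Peak 10987, at 98443333 to 98443594, led the block with a -log10 p of 21.8. Its pileup was 23.3 fragments, its background 1.46 and its fold, with 1 added to both, 9.88. In the whole list it ranked 31, so the block did not hold the strongest peaks of the genome.

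Peak 10759, at 93927282 to 93927509, followed with a pileup of 19.1 and a -log10 p of 20.2. It was the only peak of the block with a fold of at least 10, its fold being 10.4. Peak 10872, at 96013660 to 96013903, had the highest pileup of the block but only the third -log10 p, 18.1, because its background was 2.32 and its fold 7.55.

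Peak 10319, at 82855261 to 82855488, ranked 4 in the block and 97 in the list. Its pileup was 19.0, its fold 9.15 and its -log10 p 18.04, and a low peak lay 3.21 kb away. It is 1 of the 2 peaks of the block for which the study designed primers, and the study used it as a site without the enhancer marks that it examined. The other, peak 10994 at 98693610 to 98693917, was weaker, its pileup being 13.0, its fold 5.27 and its -log10 p 8.88, and ranked 66 in the block and 1882 in the list. Both fell into crowded bins, of 46 and 35 peaks.

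The remaining 6 of the 10 strongest had -log10 p from 14.5 to 17.0, pileups from 14.8 to 17.1 and folds from 8.16 to 9.19. Peak 10796 lay at 94739340 to 94739595, peak 10536 at 89586635 to 89586844, and peak 10338 at 83227524 to 83227775. Peaks 10541, 10742 and 10971 lay at 89695329 to 89695509, 93658929 to 93659255 and 98137245 to 98137509. All 10 were between 181 and 327 bp long, and they were scattered over the crowded stretches rather than gathered at 1 place. Of the 10, 2 lay between 82 and 85 Mb, 6 on the crest and 2 in the bin from 98 to 99 Mb.

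The peaks next to the borders of the block are given as a description, since single peaks cannot show whether pileup has a step there. The last peak before it, centred 33.2 kb before the first peak inside, had a pileup of 6.12, and that first peak had 7.58. At the far border, the last peak inside had a pileup of 6.28 and the first outside 6.90, with centres 117 kb apart.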

How the data were processed

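Per the methods, reads were trimmed by the authors with Trim Galore, aligned with BWA, filtered and given to MACS2, which called peaks on the Hmga2 library against the input, with broad region calling per the header of the study's peak table. Values of a peak are then means along it. The deposited signal is the pileup of ChIP fragments. The deposited score columns (fold, -log10 p-value and q-value) had displaced decimal points, since the fold exceeded the pileup plus 1 in 34258 of 34597 peaks. For each peak the placement that met MACS2's relation of pileup, fold and Poisson p was taken, and q was placed by its relation to p. In the block, restored and Poisson p differed by a median of 0.36% and at most 7.69%. The placement was chosen to make this difference small, so it is no independent check. The procedure was also run on simulated peaks, but these were derived from the restored values, so that run is not independent either. Sequencing depth is not given in the list and counts as unknown here, so precision rests on the number of peaks. A pileup of 5 as a single count would have an exact Poisson interval of 1.62 to 11.7.

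A fold of at least 2 and p under 0.001 were required, which removed no peak. Densities refer to the length of chromosome between its outermost peaks. Intervals are exact Poisson (densities), exact conditional binomial (ratios of densities), Wilson (shares), order-statistic (medians) and Katz (ratios of shares), and peaks of 1 library are not replicates. The ratio of medians has as its bounds those of the medians divided crosswise. The peaks named are the 10 of the block with the highest -log10 p, those with primers in the methods, the longest, the closest pair, the widest interval and the longest chains. The stretches within the block were drawn after the bins had been seen, and the block, the lists and the choices were made with earlier results of these data known. A+T content, motifs and genes at the peaks were not analysed here. Python 3.11.15, scipy 1.17.1 and pandas 2.3.3 were used.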

Additional observations from a re-analysis of the deposited data

How the results depend on the processing

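Of 46 alternatives to the 6 main values, besides 6 that use all peaks of the list and are identical to them, 27 stayed within the interval of the main value or, for the fullest bin, within 1.5 times its count. The classes by pileup were added after the data had been seen. The density ratio to the rest of chromosome 14, 3.00, was 2.61 when a 4-fold excess was required, 4.42 at a q under 1e-05, 3.92 at p of at most 1e-08 and 3.29 with the borders narrowed by 2 Mb on each side. It was 4.14 against the chromosome before the block, 1.46 against that after it, and 3.49, 2.15, 2.45 and 3.69 in the pileup classes from 5, 7, 8 and 10. It was above 1 in each, which is a description, because the block was chosen with its crowded bins known. The highest count of any bin, 60 peaks, became 24 with 4-fold excess and 7 at a q under 1e-05 or p of at most 1e-08, not always in the same bin, by construction of stricter thresholds. The ratio of median pileups, 0.961, turned to 1.03 with 4-fold excess and to 1.01 at p of at most 1e-08, both with intervals that include 1. Fold and p derive from the pileup, so these limits select on the value compared and do not test it. The ratio of the shares with a neighbour within 10 kb, 1.72, was 2.97 at p of at most 1e-08 (0.616 to 14.3), 2.58 against the chromosome before the block, 1.19 against that after it and 1.29 within 50 kb. At a q under 1e-05 it has no value, since no peak of the rest had such a neighbour. The cause of these changes was not tested. Alternatives that need A+T content or genes were not run, since a genome of matching build was not used here. No paired analysis was possible because the list comes from a single ChIP library.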

Other observations

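Some values belong to no comparison above. Of the 869 peaks of the block, 58 had a pileup of exactly 5, the lowest of the list (6.67%, interval 5.20% to 8.53%), compared with 7.21% (6.93% to 7.50%) of the peaks on the other autosomes. The highest q in the block was 0.0958 and that of the list 0.0977. A local background over 1.2 fragments was found at 62 peaks of the block, or 7.13%, compared with 10.5% on the chromosome before it and 6.28% after it, and a background over 2 at 4 peaks of the block and 1 peak of the rest of the chromosome. The median length of the peaks of a bin tended to be higher in fuller bins of the block (Spearman rho = 0.53 over 25 bins of 1 library, as a description).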
